A study of Mus musculus with 6 samples.

Results

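Adipocyte genes were examined in whole tibialis anterior muscle of mice. The 10 genes of interest were Adipoq, Lep, Plin1, Fabp4, Cfd, Cidec, Retn, Lipe, Pck1 and Adrb3, and a probe set entered when its only gene symbol in the platform annotation was one of them. This gave 8 probe sets, 1 for each of 8 genes, out of 35557 probe sets on the array and 19938 genes with a symbol of their own. No probe set is listed for Cfd, the serine protease adipsin, or for Adrb3, the beta-adrenergic receptor of fat cells, so both were not analysed here. The muscles came from 3 samples labelled MLC-SOCS-3/C57Bl6J and 3 labelled control C57Bl6J, 1 Affymetrix array each. All were from animals aged 11 weeks, starved for 6 h before the muscle was frozen. SOCS-3 is an intracellular inhibitor of cytokine and insulin receptor signalling. The labels do not describe the transgene's construct or promoter beyond the name MLC, nor say whether replicates are separate animals, so a p-value here reflects sample-to-sample spread that could be technical.

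White fat cells store triglyceride in 1 large droplet, release it as fatty acids when hormones of fasting act, and secrete hormones that report on fat stores. Adiponectin and leptin are the best known of these hormones, and both act on muscle through receptors that raise fatty acid oxidation. Fat cells lie between muscle fibres and along the fascia and vessels of a limb muscle, so whole-muscle RNA can hold some of their transcripts. Within bulk tissue, more fat cells and more RNA per fat cell cannot be told apart. Several of the genes are not exclusive to fat cells: Lipe is used by muscle fibres, Fabp4 by endothelium and macrophages, and Pck1 by liver and kidney.

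The stretches of 250 bases upstream of the annotated start are shown for 4 genes (RefSeq, GRCm38.p6, 5′ to 3′). Adipoq and Retn are shown because their values did not overlap between the groups, and Lep and Pck1 because they hold the rarest motif matches. Capitals mark every match of the motifs searched on both strands.
Adipoq, chr16:23146286-23146535, plus strand: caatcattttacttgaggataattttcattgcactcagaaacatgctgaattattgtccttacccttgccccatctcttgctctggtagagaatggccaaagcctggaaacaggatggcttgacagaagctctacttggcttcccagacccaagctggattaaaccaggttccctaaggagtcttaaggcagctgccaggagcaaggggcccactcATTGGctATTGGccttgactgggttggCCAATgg
Retn, chr8:3655520-3655769, plus strand: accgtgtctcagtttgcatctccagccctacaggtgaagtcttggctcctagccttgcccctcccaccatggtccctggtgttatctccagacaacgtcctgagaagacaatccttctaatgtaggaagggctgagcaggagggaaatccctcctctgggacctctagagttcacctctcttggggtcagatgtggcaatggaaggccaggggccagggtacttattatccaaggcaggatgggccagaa
Lep, chr6:29059971-29060220, plus strand: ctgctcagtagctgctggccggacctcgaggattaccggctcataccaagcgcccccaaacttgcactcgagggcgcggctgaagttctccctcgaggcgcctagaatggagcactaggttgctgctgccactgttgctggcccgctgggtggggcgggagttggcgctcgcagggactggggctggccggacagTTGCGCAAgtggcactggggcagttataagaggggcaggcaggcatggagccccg
Pck1, chr2:173152823-173153072, plus strand: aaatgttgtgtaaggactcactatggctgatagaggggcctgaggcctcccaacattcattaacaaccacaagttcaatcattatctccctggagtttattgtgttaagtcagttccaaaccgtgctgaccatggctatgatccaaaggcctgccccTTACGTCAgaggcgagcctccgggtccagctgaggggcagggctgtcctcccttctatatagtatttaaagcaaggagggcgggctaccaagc
Promoters were found for 7 of the 8 measured genes, 9 stretches in all. The Lep stretch holds TTGCGCAA, a palindrome bound by C/EBP factors, which is present in 0.164% of the 32851 upstream stretches of the mouse table. Its match lies 55 to 48 bases before the start. The Pck1 stretch holds TTACGTCA, a variant of the cyclic AMP response element, 93 to 86 bases before the start, against 0.447% of all stretches. The Adipoq stretch holds CCAAT, a common promoter box, at 3 places over both strands, and 33.8% of all stretches hold it at least once. Retn, Plin1, Cidec and Lipe held none of the motifs searched. The peroxisome proliferator response element, which repeats AGGTCA with 1 base between, the single site AGGTCA, which the repeat contains, and the TATA box TATAAA were in none of the 9. A match is a description of the letters and not of binding.

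Neither probe set of Socs3, the transgene's own gene, had a higher mean in the MLC-SOCS-3 group. The differences were -0.26 ± 0.07 and -0.22 ± 0.08 (SE, log2), and on both probe sets every MLC-SOCS-3 array lay below every control. Of all 19938 genes, 1548 had groups apart in that direction. Neither difference passed (limma, unadjusted p = 0.011 and 0.030, adjusted p = 0.80 and 0.82). Because it is not known whether the Socs3 probes lie in the transgene, each direction below is for the arrays as labelled. All values are log2 RMA intensities as deposited. The median probe set lay at 5.99, the only level against which brightness is described. The array medians ran from 5.98 to 6.01 on the MLC-SOCS-3 arrays and from 6.00 to 6.04 on the control arrays. Muscle fibre markers, as a check of the tissue, were above the median for 14 of 14 genes.

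No adipocyte gene passed the test across all probe sets. All 8 measured genes nevertheless had a higher mean in MLC-SOCS-3 muscle, by 0.06 to 0.64 on the log2 scale and a median of 0.16. Of all genes, 43.8% had a higher mean, and the median of all genes was -0.016. The adipocyte genes were chosen with earlier results of these data known, so 8 of 8 is a description and no test. At an adjusted p under 0.05, limma called 0 of the 35557 probe sets (0%), and 2105 (5.92%) had an unadjusted p under 0.05. Adipoq was the 1 adipocyte gene of 8 with an unadjusted p under 0.05, against 4.86% of all genes. The groups did not overlap for 2 of the 8 genes, Adipoq and Retn, against 12.3% of all genes in either direction and 4.52% with MLC-SOCS-3 higher. An exact permutation test of 3 arrays against 3 cannot give a two-sided p below 0.1.

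**Figure D1:**
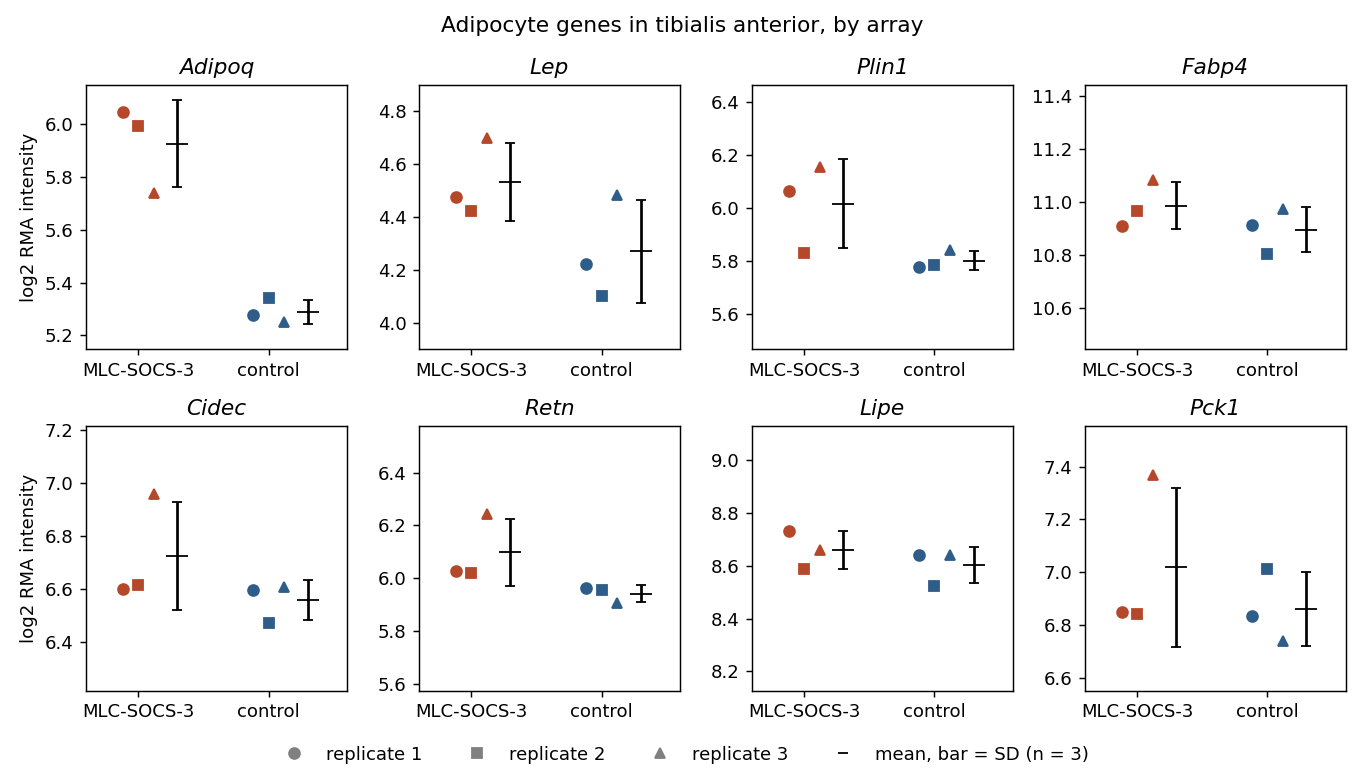
Log2 RMA intensity of the 8 measured adipocyte genes on each array, MLC-SOCS-3 left and control right, with the mean and SD of 3 arrays beside the points and an axis of the same length in every panel. The groups are apart for Adipoq by 0.40 and for Retn by 0.06, and MLC-SOCS-3 replicate 3 is the highest array for 6 genes.

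Among the secreted hormones, Adipoq encodes adiponectin, which is made almost only by fat cells. Its intensity was 6.04, 5.99 and 5.74 on MLC-SOCS-3 replicates 1 to 3, against 5.28, 5.34 and 5.25 on control replicates 1 to 3. The lowest MLC-SOCS-3 array lay 0.40 above the highest control, and the 3 controls lay within 0.1 of each other. The means were 5.93 ± 0.16 in MLC-SOCS-3 muscle and 5.29 ± 0.05 in control muscle (SD, n = 3 each), a difference of 0.64 (95% interval 0.40 to 0.87) or 1.55-fold. Adipoq stood 31st by p among 35557 probe sets and did not pass (limma, adjusted p = 0.69; exact permutation p = 0.1). The probe set is dimmer than the median one, where folds on the RMA scale are compressed.

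Lep encodes leptin, the hormone through which fat stores restrain appetite. It measured 4.47, 4.42 and 4.70 on MLC-SOCS-3 replicates 1 to 3, against 4.22, 4.10 and 4.48 on the controls. Control replicate 3 lay above the 2 lower MLC-SOCS-3 arrays, so the groups overlapped. The difference was 0.26 ± 0.13 (SE; 95% interval -0.05 to 0.57; limma, adjusted p = 0.84), at a level below the median probe set. In both groups replicate 3 was the highest and replicate 2 the lowest.

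Retn encodes resistin, which in mice is a fat cell hormone that opposes insulin action. Its values were 6.03, 6.02 and 6.24 on the MLC-SOCS-3 arrays, against 5.96, 5.96 and 5.91 on the control arrays. All 3 MLC-SOCS-3 arrays lay above every control, though replicates 1 and 2 did so by 0.06 to 0.07. The difference of 0.16 ± 0.08 (SE) did not pass (limma, adjusted p = 0.86; exact permutation p = 0.1), and without MLC-SOCS-3 replicate 3 it was 0.08.

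Of the droplet proteins, Plin1 encodes perilipin 1, which coats the droplet of fat cells and gates access of lipases to it. It read 6.06, 5.83 and 6.16 on the MLC-SOCS-3 arrays, against 5.78, 5.79 and 5.84 on the control arrays. MLC-SOCS-3 replicate 2 lay just below the highest control, and the other 2 lay above all controls. The difference was 0.21 ± 0.10 (SE; 95% interval -0.03 to 0.46; limma, adjusted p = 0.83).

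Cidec encodes the protein that lets droplets fuse and grow into 1 large droplet. It measured 6.60, 6.61 and 6.96 on the MLC-SOCS-3 arrays, against 6.60, 6.47 and 6.61 on the controls. MLC-SOCS-3 replicate 3 stood clear of the controls, replicate 2 lay above the highest of them by less than 0.01, and replicate 1 lay among them. The difference of 0.17 ± 0.12 (SE; limma, adjusted p = 0.87) was 0.05 without MLC-SOCS-3 replicate 3.

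Lipe encodes hormone-sensitive lipase, which cleaves diacylglycerol in fat cells and in muscle. It had values of 8.73, 8.59 and 8.66 on the MLC-SOCS-3 arrays, against 8.64, 8.52 and 8.64 on the controls. MLC-SOCS-3 replicates 1 and 3 lay above every control, replicate 3 by little, while replicate 2 lay inside the control range. The difference was 0.06 ± 0.07 (SE; 95% interval -0.12 to 0.24; limma, adjusted p = 0.91). It was 0.020 without control replicate 2 and 0.023 without MLC-SOCS-3 replicate 1.

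Fabp4 encodes the fatty acid binding protein of fat cells, endothelium and macrophages, and its level was above the median probe set. It read 10.91, 10.97 and 11.08 in MLC-SOCS-3 muscle, against 10.91, 10.80 and 10.97 in control muscle. Replicate 3 alone lay above every control, and the difference was 0.09 ± 0.08 (SE; 95% interval -0.11 to 0.29; limma, adjusted p = 0.88). It was 0.042 without MLC-SOCS-3 replicate 3 and 0.044 without control replicate 2.

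Pck1 encodes the cytosolic phosphoenolpyruvate carboxykinase, which makes the glycerol backbone of triglyceride in fasting fat cells and glucose in liver. Its intensities were 6.85, 6.84 and 7.37 on the MLC-SOCS-3 arrays, against 6.84, 7.01 and 6.74 on the controls. MLC-SOCS-3 replicates 1 and 2 lay inside the control range and replicate 3 far above it. The difference of 0.16 ± 0.17 (SE; limma, adjusted p = 0.90) became -0.02 without MLC-SOCS-3 replicate 3, the 1 sign change among the 8 genes.

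**Figure D2:**
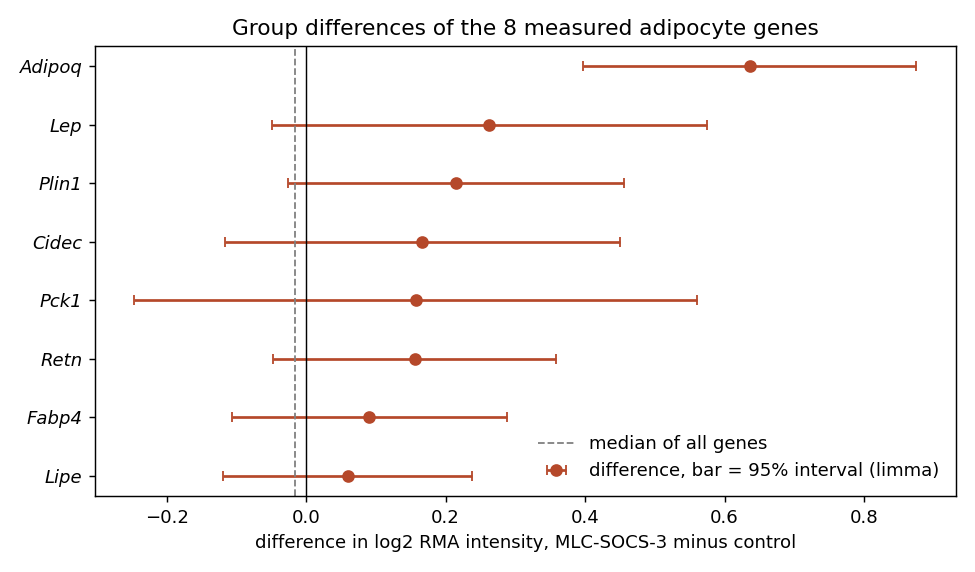
Difference in log2 RMA intensity, MLC-SOCS-3 minus control, with its 95% interval from limma for each of the 8 genes, and the median of all genes as a dashed line. The interval lies above 0 for Adipoq (0.40 to 0.87) and includes 0 for the other 7 genes, and no gene passed after adjustment over all probe sets.

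The 8 genes did not share 1 pattern over the arrays. MLC-SOCS-3 replicate 3 was the highest array for 6 genes, Lep, Plin1, Fabp4, Cidec, Retn and Pck1, and replicate 1 for Adipoq and Lipe. Adipoq ran the other way within that group: replicate 3 was its lowest MLC-SOCS-3 value. With each gene centred on its own mean, the 8 genes averaged 0.08, 0.02 and 0.23 on MLC-SOCS-3 replicates 1 to 3, against -0.11, -0.14 and -0.08 on the controls. The 7 genes other than Adipoq averaged 0.03, -0.03 and 0.24, against -0.08, -0.12 and -0.04, so that MLC-SOCS-3 replicate 2 and control replicate 3 nearly met. On replicate 3, 8 of 8 genes were above their own mean, against 5 and 4 on MLC-SOCS-3 replicates 1 and 2, and 1, 1 and 3 on the controls. Every control array held at least 1 gene's lowest value and no MLC-SOCS-3 array held any. Without MLC-SOCS-3 replicate 3 the median difference of the 8 genes was 0.07, against 0.16 with it, while the difference of Adipoq was 0.73.

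**Figure D3:**
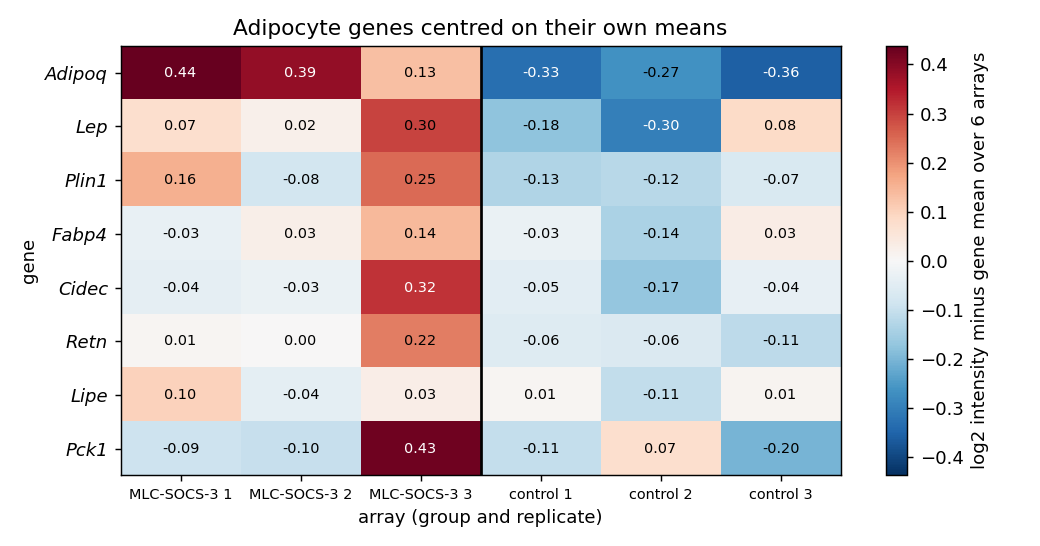
Each cell gives a gene's log2 intensity minus its mean over the 6 arrays, with MLC-SOCS-3 arrays left of the line and control arrays right of it. Adipoq is high on MLC-SOCS-3 replicates 1 and 2 (0.44 and 0.39), whereas Cidec and Pck1 are high on replicate 3 alone (0.32 and 0.43).

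The 5 genes whose profile over the 6 arrays was closest to that of Adipoq were picked among 19938 genes. None was from the lists of fat cell genes. All 11 lists described below hold 162 genes together, so this absence says little about Adipoq. Likeness was the root mean square difference between profiles centred on their own means. The closest was the olfactory receptor gene Olfr1331, at 0.057, with 5.51, 5.48 and 5.20 on the MLC-SOCS-3 arrays against 4.83, 4.85 and 4.88 on the controls. Pdp2, which encodes a phosphatase of pyruvate dehydrogenase, followed at 0.10, then Gm5662 and Tcl1b3 at 0.14 each and Actr6 at 0.14. Olfr1331, Gm5662 and Tcl1b3 are dimmer than the median probe set, as Adipoq is.

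The wider set of genes listed for fat cells lay on both sides of 0. The fat lists were not limited to genes exclusive to fat cells, and which cells gave their signal was not tested. For example, Car3 averaged 13.81 in MLC-SOCS-3 and 13.76 in control muscle, Cd36 12.18 and 12.21, and Lpl 11.54 and 11.68. All 3 are far above the median probe set at 5.99. Mixed signs therefore cannot decide whether fat cell transcripts as a whole followed the measured adipocyte genes. The mixed signs were not limited to bright genes. Among fat cell markers dimmer than the median probe set, Lgals12 was at -0.13 ± 0.19 and Hcar1 at -0.12 ± 0.10 (SE). Acvr1c, also dimmer, was at 0.11 ± 0.09 and Hcar2 at 0.05 ± 0.12. None of the 162 genes in 11 further lists passed over all probe sets. Of these 162, 5 had an unadjusted p under 0.05 (limma), against 4.86% of all genes. Among the 29 other fat cell markers, 12 differences were positive and 17 negative, with a median of -0.04. Angptl4, an inhibitor of lipoprotein lipase, was at 0.27 ± 0.14 (SE), Adig, a small fat cell protein, at 0.37 ± 0.22, Nnat at 0.15 ± 0.09 and Vstm2a at -0.24 ± 0.14. The list averaged -0.08, -0.06 and 0.11 on the MLC-SOCS-3 arrays, against 0.04, 0.08 and -0.09 on the controls. Replicate 3 was the highest MLC-SOCS-3 array for this list and for brown and beige fat markers, but not for the other fat lists. It was the lowest of the 3 for lipid synthesis and storage (0.07, 0.00 and -0.02 on replicates 1 to 3), for lipolysis and droplet coat (0.04, 0.01 and -0.01) and for the hormone receptors (0.05, 0.00 and -0.05), and adipogenic factors averaged -0.01, 0.02 and 0.01. The controls averaged 0.01, -0.02 and -0.05 for lipid synthesis and storage and 0.03, -0.02 and -0.05 for lipolysis and droplet coat.

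Transcription factors of fat cell formation gave 6 positive and 9 negative differences of 15, with a median of -0.03. Pparg and Cebpa, the central pair, were at -0.03 ± 0.09 and -0.07 ± 0.13 (SE). Srebf1, a regulator of lipid synthesis, read 8.42, 8.29 and 8.06 on the MLC-SOCS-3 arrays, against 8.64 on each control, a difference of -0.38 ± 0.10 (limma, unadjusted p = 0.010, adjusted p = 0.80). Ebf1 was at 0.17 ± 0.07, Stat5b at 0.18 ± 0.10 and Prdm16 at -0.19 ± 0.08.

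Of the 19 genes of lipid synthesis and storage, 12 were positive and 7 negative, with a median of 0.01. Scd1, the desaturase that makes oleate, read 8.81, 8.40 and 8.53 on the MLC-SOCS-3 arrays, against 8.10, 7.96 and 8.05 on the controls. Its groups did not overlap, and the difference of 0.54 ± 0.12 (SE) did not pass (limma, adjusted p = 0.73). Lpl, which frees fatty acids from lipoproteins, was lower on all 3 MLC-SOCS-3 arrays than on any control, at -0.14 ± 0.07. Acaca was at 0.12 ± 0.10 and the glycerol channel gene Aqp7 at -0.09 ± 0.09.

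Lipases and droplet proteins outside the 8 genes gave 9 positive and 7 negative differences of 16, with a median of 0.05, and the groups overlapped for all 16. Pnpla2, the lipase that starts triglyceride breakdown, was at 0.06 ± 0.07 (SE). Plin3 was at 0.28 ± 0.16, Mgll at 0.15 ± 0.09 and Plin4 at 0.19 ± 0.16, and Cidea, a droplet protein of brown fat, at -0.25 ± 0.15. Brown and beige fat markers were negative for 12 of 14 genes, with a median of -0.08. Ucp1, the uncoupling protein that defines brown fat, was below the median probe set in both groups, at 4.71 ± 0.11 in MLC-SOCS-3 muscle and 4.79 ± 0.18 in control muscle (SD, n = 3 each). Ppargc1a, also used by muscle fibres, read 9.50, 9.50 and 10.41 on the MLC-SOCS-3 arrays, against 9.55, 9.34 and 9.15 on the controls, so that replicate 3 stood apart for it as for Pck1. Its second, dimmer probe set gave 9.25, 9.39 and 10.22, against 9.20, 8.84 and 8.77.

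Of 5 measured genes listed as receptors of these hormones, 4 differences were positive, with a median of 0.01, and Paqr3, a relative of the adiponectin receptors, was at -0.11 ± 0.09 (SE). Adipor1 and Adipor2, the adiponectin receptors, were at 0.04 ± 0.06 and 0.07 ± 0.07 (SE), with 95% intervals of -0.10 to 0.18 and -0.11 to 0.25. Cdh13, which binds adiponectin at the cell surface, was at 0.01 ± 0.06. Lepr, the leptin receptor, was below the median probe set and at 0.01 ± 0.13.

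**Figure D4:**
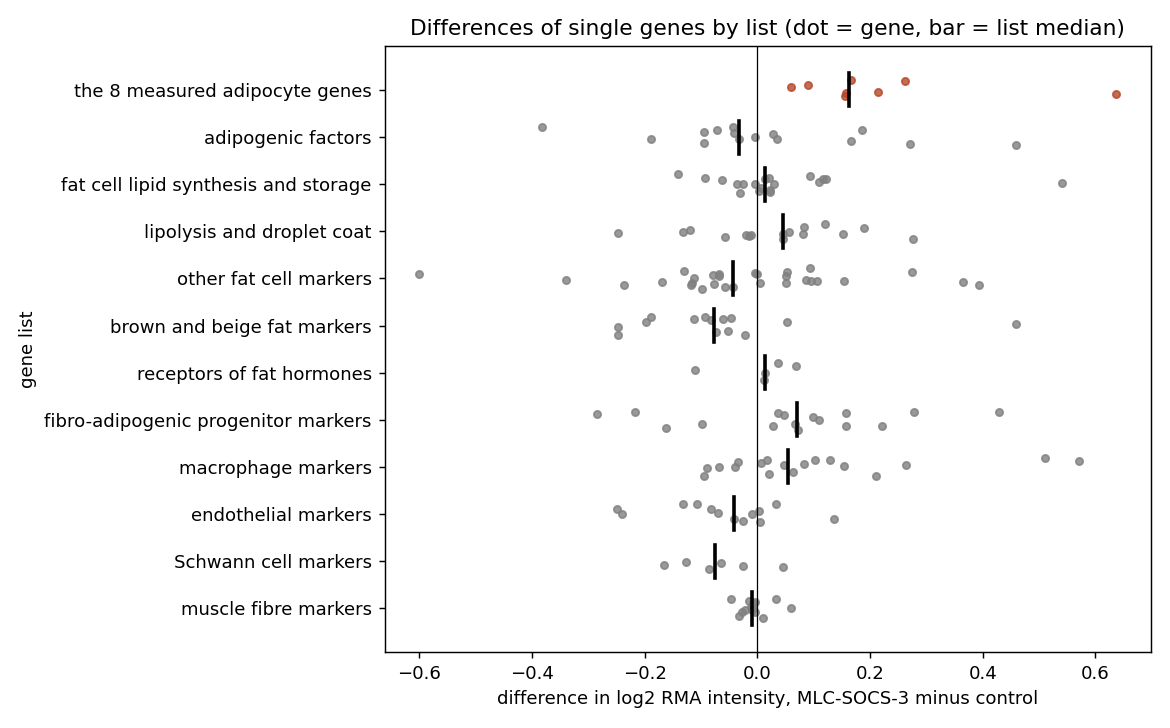
Differences in log2 RMA intensity, MLC-SOCS-3 minus control, for single genes of each list (dots) with the list's median (bar). The 8 measured adipocyte genes are all above 0, with a median of 0.16, while the other 11 lists lie on both sides of 0 with medians between -0.08 and 0.07. Genes and lists were chosen with earlier results of these data known, so the contrast is no test.

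Markers of other cells that lie with fat cells between the fibres were measured on the same arrays. Markers of fibro-adipogenic progenitors, the mesenchymal cells from which fat cells in muscle form, were positive for 12 of 16 genes, with a median of 0.07. The list averaged -0.06, 0.10 and 0.04 on the MLC-SOCS-3 arrays, against -0.03, -0.06 and 0.00 on the controls. Pdgfra, their defining receptor, was at 0.16 ± 0.07 (SE), Mmp2 at 0.22 ± 0.10 and Gsn at 0.16 ± 0.07, each with MLC-SOCS-3 arrays above all controls. Another 3 genes of the list had MLC-SOCS-3 arrays below all controls. They were Pi16 at -0.28 ± 0.08, Dpp4 at -0.16 ± 0.08 and Dlk1 at -0.22 ± 0.11, the last 2 named after their values were seen. Of all 19938 genes, 901 had MLC-SOCS-3 arrays above all controls and 1548 had them below. Macrophage markers were positive for 13 of 18 genes, with a median of 0.05, averaging -0.07, 0.08 and 0.15 on the MLC-SOCS-3 arrays, against -0.24, 0.11 and -0.03 on the controls. The 4 genes with the smallest p were Itgam at 0.57 ± 0.11, Tyrobp at 0.26 ± 0.09, Cd68 at 0.51 ± 0.29 and Ctss at 0.21 ± 0.16. Of the defining markers, Csf1r was at 0.05 ± 0.09, Adgre1 at 0.06 ± 0.12 and Cd14 at 0.01 ± 0.09, and the complement gene C1qa was at -0.09 ± 0.16 and Cx3cr1 at -0.09 ± 0.14, all named outside the rule. MLC-SOCS-3 replicate 3, the highest array for 6 adipocyte genes, was also the highest for the macrophage list, and the part of either cell type in the adipocyte values was not tested. Muscle fibre markers had differences between -0.05 and 0.06, and their list average was lowest on MLC-SOCS-3 replicate 3, at -0.02.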

How the data were processed

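RNA from 3 MLC-SOCS-3 and 3 control muscles was hybridised to 1 Affymetrix array each (300 ng total RNA, per the labels' protocols). The authors deposited log2 intensities. Per the submitters' processing notes they used Affymetrix Expression Console and RMA (versions not given in the sources used here). The procedure compresses the folds of dim genes. The table has no detection calls, so presence or absence is not judged, and the 6 arrays limit the precision. All 6 columns were used.

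The annotation of the platform, possibly out of date, lists 23410 of 35557 probe sets, 21789 with 1 symbol and 1621 with several. The rest are unnamed here. Of those with 1 symbol, 21698 had an Entrez identifier found in RefSeq and took the RefSeq symbol, whether or not it differed. In lists, a gene with several probe sets was represented by the brightest. Limma 3.58.1 in R 4.3.3 (lmFit, eBayes, two-sided) compared MLC-SOCS-3 with control over all probe sets, with Benjamini-Hochberg adjustment and a threshold of 0.05. Lists got no test and are given by counts and medians. The script was tested on simulated data.

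The genes named were the 8 measured, Socs3, up to 4 per list with the smallest p, 9 further genes fixed by name, and the 5 most like Adipoq. Named outside these rules were Car3, Cd36, Lgals12, Hcar1, Acvr1c and Hcar2, besides the genes marked so where they are given. The second Ppargc1a probe set was added after its values were seen. The members and lists were chosen with earlier results of these data known. Upstream stretches came from RefSeq (GRCm38.p6). At most 36 values were identical between any pair of arrays.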

Additional observations from a re-analysis of the deposited data

How the results depend on the processing

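The 15 alternatives changed the moderation of variances, the probe sets tested, the scaling, the weights or the pairing, or left out 1 array. No adipocyte gene was called under any of them, with limma's adjusted p between 0.16 and 0.99. The number of probe sets called was 11 when the listed probe sets alone were tested with trended, robust variances, 1 with 1 probe set per gene, and 0 to 1 when 1 array was left out, against 0 as reported. The cause was not tested. The median difference of the 8 genes ran from 0.071 (without MLC-SOCS-3 replicate 3) to 0.234 (without MLC-SOCS-3 replicate 2) when 1 array was left out, and from 0.16 to 0.18 under the other settings. Changing the moderation of variances, the probe sets tested or the pairing cannot alter a gene's difference. Those settings are no check of direction. Of 117 member differences under all the alternatives, 116 kept their sign, a count that includes those settings and so overstates the check. The exception was Pck1, which ran from -0.017 (without MLC-SOCS-3 replicate 3) to 0.246 when 1 array was left out. Adipoq ran from 0.58 to 0.73, with its lowest adjusted p of 0.16 in the same setting of listed probe sets with trended, robust variances. Adipoq, Lep and Plin1 are below the median level and had no value on probe sets above it. With the replicate block, the pairing of equal replicate numbers, 0 probe sets and 0 adipocyte genes were called, and the median difference was 0.16. Deviations from the group means gave r = -0.05, -0.04 and -0.14 across genes for samples of equal number. For samples of unlike number r ran from -0.08 to 0.13. With 3 arrays per group these values cannot decide whether equal numbers mark paired samples, which the labels do not say. With each array centred on its median, the median of all probe sets was 0.01 and that of the 8 genes 0.18.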

Other observations

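Of all 19938 genes, 11210 had a negative difference. Schwann cell and myelin markers were negative for 5 of 6 measured genes, with a median of -0.07, and none passed. Their list average was -0.05, -0.01 and -0.05 on the MLC-SOCS-3 arrays, against 0.02, 0.04 and 0.04 on the controls, and Ncmap was at -0.17 ± 0.11 and Mbp at -0.13 ± 0.10 (SE). Endothelial markers were negative for 9 of 13 genes, with a median of -0.04. Cdh5 and Tek, named outside the rule, were at -0.07 ± 0.09 and -0.02 ± 0.09 (SE). The vascular growth factor receptor gene Kdr was at -0.24 ± 0.14 and Egfl7 at -0.25 ± 0.10, while the junction gene Pecam1 was at 0.14 ± 0.07.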
